A study of Mus musculus with 2 samples.

Results

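The cell cycle genes described here are 43 of the 27998 genes listed in the count matrices of mouse islet cells. They were chosen by gene symbol, as 26 genes that act in mitosis and 17 genes that act in S phase, and all 43 were found. The mitosis genes are Mki67, Top2a, Cdk1, Ccnb1, Ccnb2, Ccna2, Cenpf, Cenpe, Cenpa, Ube2c, Birc5, Bub1, Bub1b, Aurka, Aurkb, Plk1, Kif11, Kif23, Tpx2, Nusap1, Hmmr, Pbk, Spc25, Cdca3, Cdca8 and Cdc20. The S phase genes are Mcm2, Mcm3, Mcm4, Mcm5, Mcm6, Mcm7, Pcna, Rrm1, Rrm2, Tyms, Gins2, Tk1, Ccne1, Ccne2, Uhrf1, Dtl and Hells.

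The study profiled islet cells of WT mice and of littermates with a germline ghrelin knockout (GKO), all 8-week-old males of the C57BL/6N strain, by droplet-based single-cell RNA-Seq. Each genotype is 1 library, made from the islets of 4 pooled mice, so individual mice cannot be told apart and cells are not replicates. No test between genotypes was possible, and the 95% intervals given below (exact binomial for shares, exact Poisson for ratios of sums) cover counting error only. Live single cells had been sorted before capture, and each transcript captured in a droplet carries the barcode of the droplet and a unique molecular identifier (UMI).

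There were 7792 barcodes with 158067110 UMIs in WT and 7289 barcodes with 103511757 UMIs in GKO, and the median barcode had 13934 and 10521 UMIs. The libraries share 18 barcode sequences. Ghrl, the gene for ghrelin, had 43634 UMIs in WT and 280 in GKO. Most of them came from 6 WT barcodes and 1 GKO barcode with more than 100 Ghrl UMIs each, and the other barcodes held 650 and 4. A barcode was kept when it had 500 genes or more and when mitochondrial transcripts took no more than 10% of its UMIs, which left 7100 in WT and 6346 in GKO. Barcodes were classed by the hormone that took the largest share of their UMIs, at 10% or more, as β (Ins1 and Ins2), α (Gcg), δ (Sst) or γ (Ppy), and all others were called nonendocrine. In WT and GKO there were 2265 and 872 β barcodes, 1048 and 1397 α barcodes, 1414 and 1003 δ barcodes, 717 and 669 γ barcodes, and 1656 and 2405 nonendocrine barcodes. Within a class the median depth was similar in both libraries, at 37124 and 35811 UMIs in β, 12502.5 and 12174 in α, 11065 and 10148 in δ, 21737 and 21717 in γ, and 8567.5 and 8053 in nonendocrine barcodes. The classes themselves differed in depth, so every barcode was thinned to 5000 UMIs before genes were counted in it, and 353 WT and 540 GKO nonendocrine barcodes that were shallower were left out of the shares.

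In a dividing cell these genes are switched on in 2 waves. E2F transcription factors turn on S phase genes as a cell commits to copying its DNA: the MCM proteins form the helicase that opens the DNA, PCNA holds the polymerases on it, RRM1, RRM2, TYMS and TK1 make the building blocks, and cyclin E (Ccne1, Ccne2) drives the entry into S phase. Later the CDK1 kinase with cyclins A and B (Ccna2, Ccnb1, Ccnb2) drives mitosis, while TOP2A untangles the chromosomes, the CENP and NDC80 complex proteins build the kinetochore, the kinesins and TPX2 build the spindle, and UBE2C and CDC20 serve the ubiquitin ligase that ends mitosis. In resting cells many mitosis genes are held silent by the DREAM complex, which binds an element called the cell cycle genes homology region (CHR). In adult islets few endocrine cells divide.

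The promoters of the members are shown first, since the 2 groups of genes carry different elements there. RefSeq promoter windows (GRCm38.p6, 250 bases before to 50 after the start) were matched for 22 of the 26 mitosis genes and 14 of the 17 S phase genes. Ccna2, Aurkb, Tpx2, Pbk, Mcm4, Gins2 and Ccne2 were not matched. Motifs were searched as exact letters on both strands. The CHR letters TTTGAA occurred in 17 of 22 mitosis promoters (77.3%) and in 1 of 14 S phase promoters, against 17.9% of all 32851 promoters. In the bases before the start alone, 7 of 22 mitosis promoters held TTTGAA, against 16.0% of all. E2F-like letters (TTCCCGC, its variant TTGGCGC, its variant TTGCCGC or its variant TTCGCGC) had the reverse pattern, in 9 of 14 S phase promoters (64.3%) and 4 of 22 mitosis promoters, against 9.57% of all. A CCAAT box (CCAAT) was found in 20 of 22 mitosis promoters (90.9%) and 10 of 14 S phase promoters (71.4%), against 37.4% of all promoters. The TATA letters TATAAA were in 0 of 22 and 0 of 14 windows and in 13.6% of all. A match is a description of the letters and does not show that a factor binds there.

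The 120 bases before the start are printed for 4 mitosis genes whose window holds TTTGAA, namely Top2a (chr11:99024190-99024309, minus strand), Cdk1 (chr10:69352913-69353032, minus strand), Kif11 (chr19:37376262-37376381, plus strand) and Cdc20 (chr4:118437344-118437463, minus strand), 5′ to 3′ in the direction of the gene, with TTTGAA or its reverse complement TTCAAA in capitals. Spc25 (chr2:69206214-69206333, minus strand) is added because its expression set it apart from the other mitosis genes, as described below, and these 120 bases of it hold no TTTGAA. Its full window does hold TTTGAA, though not within the bases before the start, so it is among the 17 promoters counted above. The same holds for Cenpf and other mitosis genes, so the promoter letters do not set Spc25 apart.
Top2a: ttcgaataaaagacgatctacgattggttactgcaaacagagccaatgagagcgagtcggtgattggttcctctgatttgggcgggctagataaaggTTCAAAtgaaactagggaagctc
Cdk1: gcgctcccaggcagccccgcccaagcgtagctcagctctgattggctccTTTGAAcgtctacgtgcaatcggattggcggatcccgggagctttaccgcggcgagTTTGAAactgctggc
Kif11: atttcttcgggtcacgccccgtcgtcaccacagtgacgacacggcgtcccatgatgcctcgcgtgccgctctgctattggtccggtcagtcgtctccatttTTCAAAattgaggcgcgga
Cdc20: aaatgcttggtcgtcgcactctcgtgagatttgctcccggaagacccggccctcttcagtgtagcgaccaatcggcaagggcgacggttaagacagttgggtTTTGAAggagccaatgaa
Spc25: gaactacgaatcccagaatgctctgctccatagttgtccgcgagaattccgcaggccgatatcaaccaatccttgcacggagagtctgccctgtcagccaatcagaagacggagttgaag
In Top2a, Kif11 and Cdc20 the nearest match lay 23, 19 and 18 bases before the start, and in Cdk1 there were 2 matches, the nearer 15 bases before it.

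For comparison, the same window is printed for 4 S phase genes with E2F-like letters, namely Mcm6 (chr1:128359706-128359825, minus strand), Uhrf1 (chr17:56303217-56303336, plus strand), Dtl (chr1:191575545-191575664, minus strand) and Rrm1 (chr7:102441575-102441694, plus strand), with the E2F-like letters in capitals.
Mcm6: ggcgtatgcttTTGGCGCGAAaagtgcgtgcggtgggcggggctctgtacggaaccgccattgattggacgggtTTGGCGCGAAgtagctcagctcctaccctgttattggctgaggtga
Uhrf1: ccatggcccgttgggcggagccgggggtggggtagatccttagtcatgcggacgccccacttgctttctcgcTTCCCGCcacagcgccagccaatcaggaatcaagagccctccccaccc
Dtl: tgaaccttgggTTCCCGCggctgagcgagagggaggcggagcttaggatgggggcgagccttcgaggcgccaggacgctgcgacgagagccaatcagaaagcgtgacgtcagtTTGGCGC
Rrm1: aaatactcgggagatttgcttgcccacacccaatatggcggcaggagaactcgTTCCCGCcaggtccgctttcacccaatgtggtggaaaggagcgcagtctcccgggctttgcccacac
Mcm6 has 4 matches, because TTGGCGC and the reverse strand's TTCGCGC overlap in each of its 2 runs of capitals, whereas Uhrf1 and Rrm1 have 1 match each and Dtl has 2.

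Mitosis genes were found together in a small set of barcodes in every class. A barcode with at least 3 of the 26 mitosis genes at 5000 UMIs is called a mitosis barcode below. In WT β barcodes, 1451 had none of these genes, 702 had 1, 36 had 2 and 69 had 3 or more. The tail was long, and 1 WT β barcode reached 21 of the 26 genes. Spc25 by itself was found in 33.1% of WT β barcodes, as described below. Without thinning, the median mitosis barcode held 22 of the 26 genes in WT β, 23.5 in GKO β, 25 and 21 in WT and GKO α, and 22 in nonendocrine barcodes of both libraries. In δ the medians were 9 in WT and 24 in GKO, and in γ they were 16 and 15.5. The rest of the barcodes had medians of 0 or 1 in each class.

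**Figure D1:**
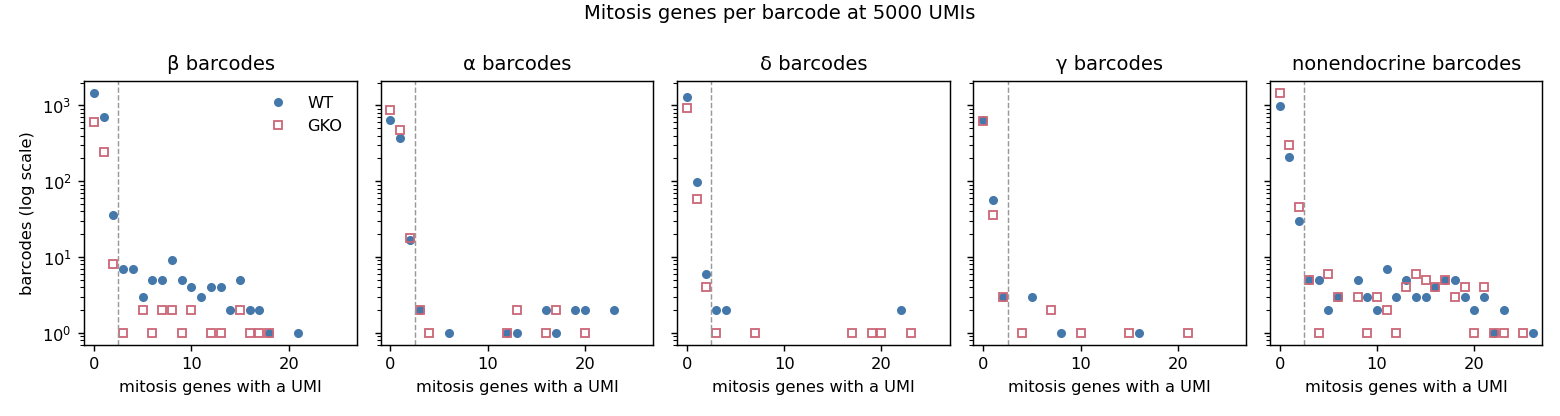
Number of barcodes (log scale) against the number of mitosis genes with a UMI at 5000 UMIs, by class and library. The dashed line marks the limit of 3 genes, and the 69 WT and 18 GKO β barcodes to its right spread over a long tail.

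Mitosis barcodes were most frequent in nonendocrine barcodes and, among the endocrine classes, in β. At equal depth they were 69 of 2258 WT β barcodes (3.06%, 95% interval 2.39 to 3.85) and 18 of 871 GKO β barcodes (2.07%, 1.23 to 3.25). The GKO share was lower, but the interval of the ratio, 0.676 (0.379 to 1.15), holds 1. In α they were 14 of 1037 WT barcodes (1.35%) and 10 of 1382 GKO barcodes (0.724%), with a ratio of 0.536 (0.213 to 1.30). The α interval is wide, since the shares rest on 24 barcodes in all. The δ shares were 6 of 1397 (0.429%) in WT and 6 of 992 (0.605%) in GKO, a ratio of 1.41 (0.376 to 5.27). The γ shares were 5 of 716 (0.698%) and 6 of 667 (0.900%), a ratio of 1.29 (0.328 to 5.34). In neither class could a difference between genotypes be seen at this number of barcodes. The δ share was the lowest in both libraries. Free RNA is still in these counts, and its part in the shares was not tested.

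Over the 4 endocrine classes together, 94 of 5408 WT barcodes (1.74%) and 40 of 3912 GKO barcodes (1.02%) were mitosis barcodes, a ratio of 0.588 (0.396 to 0.860). This pooled ratio mixes the classes, and β made up 31.9% of the kept WT barcodes but 13.7% of the kept GKO barcodes. With the 4 classes at equal weight the mean shares were 1.38% in WT and 1.07% in GKO, a ratio of 0.776. Nonendocrine barcodes had the highest shares, 72 of 1303 in WT (5.53%) and 64 of 1865 in GKO (3.43%), with a ratio of 0.621 (0.436 to 0.882). Without the barcodes with B cell markers described below, the shares were 3.47% and 2.97% and the ratio 0.855 (0.564 to 1.30), an interval that holds 1. It also held 1 when the leading hormone had to reach 20% of UMIs, with a ratio of 0.775 (0.559 to 1.07). That limit moved hormone-led barcodes into the class, which grew to 2549 in WT and 2899 in GKO, while δ fell to 522 and 355.

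Shares of barcodes with at least 3 of the 17 S phase genes ordered the classes differently. Nonendocrine barcodes were again highest, with 117 barcodes in WT (8.98%) and 146 in GKO (7.83%). Among endocrine classes δ was highest, at 41 barcodes in WT (2.93%) and 28 in GKO (2.82%), against 1.68% and 1.84% in β, 1.54% and 1.52% in α and 1.26% and 1.20% in γ. At this depth and draw, the interval of each ratio of GKO to WT held 1. The ratios were 1.09 (0.568 to 2.01) in β, 0.985 in α, 0.962 (0.573 to 1.59) in δ, 0.954 in γ and 0.872 (0.679 to 1.12) in nonendocrine barcodes. These genes are sparse, and the share moved with the random draw of UMIs: over 20 draws the WT δ share ran from 1.65% to 2.93%, with a mean of 2.27%, and the GKO δ share from 2.22% to 3.53%, with a mean of 2.88%. The depth mattered too, and at 10000 UMIs the δ ratio was 1.57 (1.08 to 2.28), above 1 and with an interval that left out 1. The same was seen for the pooled endocrine ratio with another seed (1.38, 1.01 to 1.90), and without thinning the nonendocrine ratio was 0.854 (0.731 to 0.998).

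The order of the endocrine classes also depends on what depth is matched. Hormone transcripts took most UMIs of a β barcode, so that 37.7% (WT) and 39.2% (GKO) of UMIs were left for other genes in the median β barcode, against 77.9% and 78.1% in δ. Thinned to 2000 UMIs other than hormone UMIs, β had S phase shares of 1.24% and 0.688%, and δ of 1.06% and 0.998%. On this scale the WT β and δ shares changed places, while the mitosis shares stayed higher in β (2.74% and 1.95%) than in δ (0.213% and 0.499%).

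**Figure D2:**
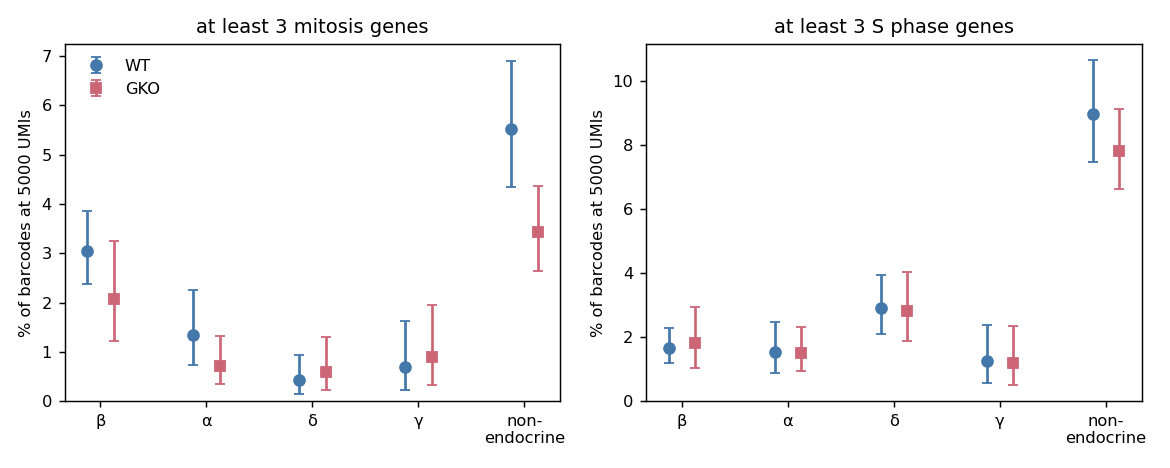
Shares of barcodes with at least 3 mitosis genes and with at least 3 S phase genes at 5000 UMIs, by class and library, with exact 95% binomial intervals. The nonendocrine shares are highest in both plots, and β is next for mitosis genes while δ is next for S phase genes.

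S phase and mitosis genes overlapped in the same barcodes more in some classes than in others. Of the mitosis barcodes, 26 of 69 in WT β (37.7%) and 5 of 18 in GKO β (27.8%) also had at least 3 S phase genes. In nonendocrine barcodes the overlap was 54 of 72 in WT (75.0%) and 54 of 64 in GKO (84.4%). The other endocrine classes lay between, so with barcodes matched on total UMIs the overlap was lowest in β in both libraries. It was 9 of 14 in WT and 7 of 10 in GKO α, 4 of 6 in δ of both libraries, and 3 of 5 and 3 of 6 in γ. Read the other way, 4 of the 41 WT δ barcodes with S phase genes were mitosis barcodes (9.76%), and 26 of the 38 in WT β were (68.4%). In GKO this share was 14.3% in δ and 31.25% in β. It was 56.25% and 33.3% in WT and GKO α, 33.3% and 37.5% in γ, and 46.2% and 37.0% in nonendocrine barcodes. Barcodes with S phase genes thus lay mostly outside mitosis barcodes in every class but WT β and WT α, and most so in δ. The δ barcodes of this kind, 37 in WT and 24 in GKO, are 2.66% and 2.43% of its other barcodes, against 0.548% and 1.29% in β. At 2000 UMIs other than hormone UMIs, the shares outside mitosis barcodes were 0.863% and 0.811% in δ, against 0.411% and 0.234% in β. They rest on 12 and 8 barcodes in δ and on 9 and 2 in β. On this scale, S phase genes were found in 28 β, 3 α, 15 δ and 2 γ barcodes of WT. Of these, 9, 1, 12 and 1 lay outside mitosis barcodes. In GKO there were 6, 13, 10 and 3, with 2, 9, 8 and 1 outside. Set against the WT mitosis barcodes above, β then no longer had the lowest overlap in WT, as α and γ lay below it. By the same counts, β still had the lowest overlap in GKO. These counts are small.

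The mitosis barcodes of β were deeper than the rest, as were those of every other class and library but GKO γ (15479 against 21763 UMIs). The median β mitosis barcode had 49053 UMIs against 36855 in WT and 41348.5 against 35645 in GKO. Insulin transcripts took a smaller part of the β mitosis barcodes, a median of 54.4% against 62.1% in WT and 50.1% against 60.6% in GKO. They remained led by insulin by the rule of the class. Some also held leukocyte transcripts: at least 3 of 8 leukocyte markers were found in 8 of 69 WT (11.6%) and 2 of 18 GKO (11.1%) β mitosis barcodes, against 1.28% and 2.70% of the rest. Without every β barcode with such markers, the shares of mitosis barcodes were 2.75% in WT and 1.89% in GKO. No α or δ mitosis barcode had 3 leukocyte markers. Of the 5 WT γ mitosis barcodes, 2 had a second hormone at 10% or more of their UMIs, and without all barcodes of that kind the γ shares were 0.449% and 0.939%.

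Among the drivers of mitosis, the transcripts lay almost wholly in mitosis barcodes. For each gene the mitosis barcodes were taken here from the other 25 genes, so that a gene did not choose its own barcodes. Top2a, which untangles chromosomes, was at 13.6 counts per 1000000 UMIs (CPM) in WT β and 10.2 in GKO β, and 94.6% and 94.4% of these UMIs were in mitosis barcodes. Mki67, the proliferation marker Ki-67, was at 9.77 and 8.57 CPM in β, with 91.8% and 87.5% in mitosis barcodes. Cdk1, the mitotic kinase, was at 6.31 and 4.42 CPM, with 89.7% and 86.9%. The cyclins did the same: in WT β, 96.3% of Ccnb1 and 87.8% of Ccna2 UMIs were in mitosis barcodes. Over all 26 mitosis genes the median was 93.5% in WT β and 90.3% in GKO β, 92.9% and 80.3% in α, and 94.7% and 93.0% in nonendocrine barcodes. Apart from Spc25, the lowest value in WT β was 77.5%, for Aurka, the kinase of the spindle poles. In δ, where there were few mitosis barcodes, the median was 58.3% in WT and 85.7% in GKO.

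In single mitosis barcodes at 5000 UMIs, detection was incomplete. Top2a was found in 65.2% of WT and 66.7% of GKO β mitosis barcodes, Mki67 in 62.7% and 70.6%, and Ube2c in 59.4% and 72.2%. In the rest of the β barcodes the same genes were found in 0.32% and 0.35%, 0.41% and 0.70%, and 0.09% and 0.12%. Cenpa, the histone variant of centromeres, was less confined than most others outside the endocrine classes, and it was found in 5.19% of the WT and 8.33% of the GKO nonendocrine barcodes without the other mitosis genes.

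Spc25, a subunit of the NDC80 kinetochore complex, was the exception among the mitosis genes. Only 15.5% of its UMIs in WT β and 12.9% in GKO β lay in mitosis barcodes, and 11.4% and 5.74% in α. Its level was 102 CPM in WT β, 85.0 in GKO β, 111 in WT α and 101 in GKO α. It was far lower in the other endocrine classes, at 7.0 and 8.74 CPM in δ and 9.79 and 7.52 in γ, and at 17.5 and 11.3 CPM in nonendocrine barcodes. Outside mitosis barcodes, Spc25 was found at 5000 UMIs in 31.9% of WT and 26.96% of GKO β barcodes and in 32.5% and 33.2% of α barcodes, against 1.58% and 2.33% in δ and 3.52% and 2.42% in γ. At 2000 UMIs other than hormone UMIs the shares were 32.8% and 30.1% in β, 21.0% and 21.8% in α, 0.93% and 1.01% in δ and 2.67% and 1.36% in γ, so the pattern of β and α against δ and γ was seen at both depths. The other 3 subunits of the complex did not follow it: Spc24 ran from 2.38 to 7.24 CPM over the endocrine classes and libraries, Ndc80 from 0.728 to 2.48 and Nuf2 from 0.321 to 1.31.

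On chromosome 2 (mm10), Spc25 (chr2:69193895-69206194, minus strand) lies beside G6pc2 (chr2:69211073-69227841, plus strand), which encodes a glucose-6-phosphatase of islet cells, and the starts of these genes are 4879 bases apart. G6pc2 was at 514 and 366 CPM in β, and at 17.0 and 16.5 in α, 6.76 and 4.19 in δ and 8.40 and 4.11 in γ. Across the classes, α had as much Spc25 as β and far less G6pc2. In WT β barcodes outside the mitosis set, Spc25 was found in 33.0% of those with a G6pc2 UMI and in 25.98% of those without. These shares were 29.3% and 20.8% in GKO β, 36.8% and 32.0% in WT α and 39.8% and 32.5% in GKO α, where 76 WT and 118 GKO α barcodes had a G6pc2 UMI. Whether reads from one gene were counted for the other was not tested. Leaving Spc25 out of the list gave mitosis shares of 2.92% and 2.07% in β and 1.16% and 0.579% in α.

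S phase genes ranged from confined to diffuse, without a clear break between them. Of the building block genes, 92.7% of Tk1 UMIs in WT β and 79.3% in GKO β were in mitosis barcodes, and for Rrm2, the regulated subunit of ribonucleotide reductase, 52.6% and 54.3%. Uhrf1, which maintains DNA methylation behind the fork, had 78.6% and 48.5% there, and Dtl, an adaptor of an S phase ubiquitin ligase, 75.9% and 52.9%. Some other replication genes were spread over many barcodes: 20.9% and 7.59% of Mcm6 UMIs, 23.9% and 15.4% of Pcna, 32.3% and 26.4% of Tyms, 29.7% and 11.6% of Ccne1 and 25.8% and 18.4% of Ccne2 were in mitosis barcodes of WT and GKO β. Hells, a chromatin remodeler, lay between, at 50.2% and 22.1%. Mcm3 and Mcm5 lay near it in WT β, with 112 and 84 UMIs in mitosis barcodes and 118 UMIs each in the rest. In every S phase gene but Rrm2 the GKO β value was below the WT value. These values are not independent, since those of a library all rest on the same mitosis barcodes. There were 69 of these in WT β (3.06%) and 18 in GKO β (2.07%). The median over the 17 S phase genes was 33.5% and 22.9% in β and 8.45% and 10.9% in δ.

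**Figure D3:**
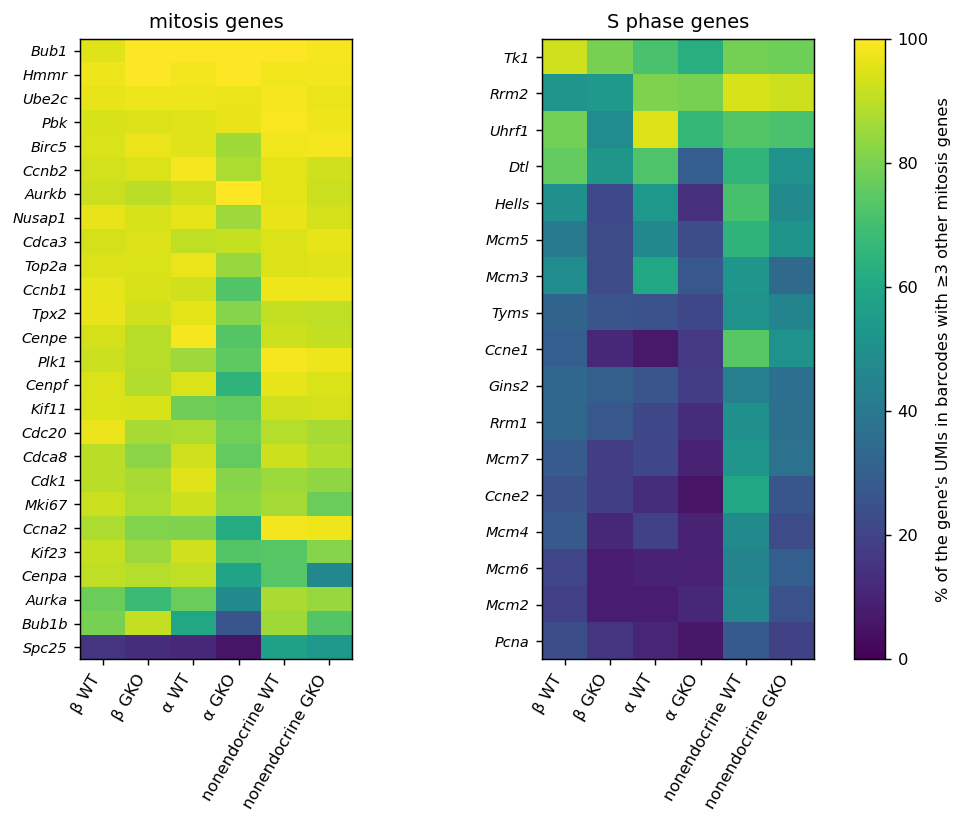
Share of each gene's UMIs (color, %) that lay in barcodes with at least 3 other mitosis genes, for the mitosis and the S phase genes in β, α and nonendocrine barcodes of both libraries. Low shares are dark and high shares bright. Spc25 is the dark row among the mitosis genes, at 15.5% in WT β, and Tk1 is among the brightest of the S phase genes, at 92.7%.

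Apart from Tk1, Rrm2, Uhrf1, Dtl and Hells, most S phase genes were highest in δ of the endocrine classes in both libraries. Of these, values are given for Mcm6 and Mcm2. The others were Mcm3, Mcm4, Mcm5, Gins2, Ccne2, Tyms and Pcna, whereas Mcm7, Rrm1 and Ccne1 were not highest in δ in both. Mcm6, a subunit of the replicative helicase, was at 16.8 (WT) and 18.5 (GKO) CPM in δ, against 7.10 and 9.93 in α, 7.47 and 8.03 in γ and 5.15 and 4.82 in β. Both δ libraries lay above every library of the other endocrine classes. Mcm2 was also highest there, at 9.45 and 9.65 CPM in δ, 6.07 and 6.89 in α, 3.01 and 4.24 in γ and 4.11 and 3.90 in β. In δ, 4.66% (WT) and 0.50% (GKO) of Mcm6 UMIs lay in mitosis barcodes, and 8.12% and 8.22% of the other δ barcodes had an Mcm6 UMI at 5000 UMIs, against 1.87% and 1.64% in β.

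Without hormone UMIs in the total, δ and β lay closer together. As CPM over the UMIs other than hormone UMIs, Mcm6 was at 21.6 and 23.7 in δ and 13.3 and 11.8 in β, which keeps the order. Pcna and Tyms did not keep theirs: Pcna ran from 15.8 to 19.5 and Tyms from 15.2 to 20.4 over all endocrine classes and libraries. Mcm3, Mcm5 and Ccne2 lost theirs too, and on this scale each was higher in WT β than in WT δ. Nonendocrine barcodes were above each endocrine class for most S phase genes, with Mcm6 at 36.6 and 25.9 CPM, Pcna at 39.0 and 33.2 and Rrm2 at 17.2 and 12.1. Ccne2 was an exception, with 4.15 and 2.15 CPM in nonendocrine barcodes against 4.79 and 4.10 in δ.

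Between genotypes, the mitosis genes of a class mostly differed in the same direction, and their UMIs came from a few barcodes. Members with at least 20 UMIs over both libraries were compared as CPM of the summed UMIs of a class, and counted where the ratio passed 1.5-fold. In either direction this was met by 6 of 43 members in β (11% of all genes compared), 24 of 43 in α (9.41%), 24 of 41 in δ (8.97%), 11 of 37 in γ (9.07%) and 23 of 43 in nonendocrine barcodes (18.2%). In α, the mitosis genes were lower in GKO for all 26, and 23 of the 26 passed 1.5-fold, where 4.68% of the 13418 genes compared were that much lower. The median log2 ratio of GKO to WT was −1.51, against 0.05 over all genes. Cenpf, a kinetochore protein, had 298 WT UMIs (20.6 CPM) and 112 GKO UMIs (5.98 CPM), a log2 ratio of −1.78 (−2.11 to −1.46). Mki67 was at 12.8 and 5.07 CPM (−1.33), Ube2c at 25.2 and 7.26 (−1.79), Ccnb1 at 4.83 and 1.17 (−2.04), and the lowest ratio of all members was that of Cdc20, at 8.35 and 1.76 CPM (−2.24, −2.85 to −1.68). Bub1b, Kif23 and Spc25 were the 3 within 1.5-fold.

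These α sums come from few barcodes. The UMIs of Mki67 in WT α came from 24 barcodes and 1 of them held 17.3% of the UMIs, so the Poisson intervals of such ratios are narrower than the sampling of cells allows. The share of barcodes, with its interval of 0.213 to 1.30 above, is the better measure of the difference. Once the mitosis barcodes were left out, 9 α mitosis genes still had at least 20 UMIs, and their median log2 ratio was −0.06.

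The S phase genes of α did not follow the mitosis genes. Of the 17, 8 were higher and 9 lower in GKO with a median log2 ratio of −0.03, and Tk1 was the 1 past 1.5-fold, at 0.97 and 0.43 CPM. Mcm6 was at 7.10 and 9.93 CPM (0.48, 0.13 to 0.84), and the highest ratio was that of Mcm5, at 2.07 and 2.94 CPM (0.50, −0.16 to 1.20).

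In β, the mitosis genes were lower in GKO for 25 of 26, but by less, with a median log2 ratio of −0.40 against 0.08 over all genes. Past 1.5-fold were Ccnb1, Ccnb2, Ube2c, Tpx2 and Cdc20, 5 of 26 where 4.99% of all 14449 genes were that much lower. Cdc20, the activator of the ligase that ends mitosis, had the lowest ratio, with 429 WT UMIs (4.82 CPM) and 85 GKO UMIs (2.59 CPM) (−0.89, −1.25 to −0.56). Top2a had a log2 ratio of −0.41 (−0.59 to −0.23) and Mki67 of −0.19 (−0.39 to 0.01). The S phase genes were nearer to equal, with a median of −0.13, and 1 of 17, Dtl, was past 1.5-fold lower. Pcna was at 7.57 and 7.89 CPM (0.06), Rrm2 at 2.18 and 2.13 (−0.03), and Tyms, thymidylate synthase, had the highest ratio, at 7.63 and 8.32 CPM (0.13, −0.08 to 0.33).

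In δ, the direction was the opposite one. Of the 24 mitosis genes with enough UMIs, 23 were higher in GKO and 19 passed 1.5-fold, where 4.72% of the 13228 genes compared were that much higher, with a median log2 ratio of 0.96 against 0.03 over all genes. Top2a had 58 WT UMIs (3.47 CPM) and 82 GKO UMIs (7.47 CPM), and Cenpe, the kinesin of the kinetochore, had the highest ratio with 4 and 18 UMIs (2.78, 1.17 to 4.80). These sums were carried by very few cells: 6 mitosis barcodes in each library, with 39.0% of the GKO Top2a UMIs in 1 barcode and 80.0% of the WT Ccnb1 UMIs in 1 barcode. Without the mitosis barcodes the direction turned, with a median of −0.39 over the 6 mitosis genes that still had enough UMIs. Of the S phase genes in δ, Rrm2, Tk1 and Hells passed 1.5-fold higher and Ccne1 and Dtl passed 1.5-fold lower, where 4.26% of all genes were that much lower. Ccne1 had the lowest ratio, at 2.45 and 1.18 CPM (−1.05, −2.08 to −0.12), while Mcm6 was at 16.8 and 18.5 CPM (0.14, −0.13 to 0.41).

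In γ, 6 of the 22 mitosis genes compared passed 1.5-fold higher (5.8% of all genes) and 3 passed 1.5-fold lower (3.27%), namely Mki67, Top2a and Bub1b. The lowest ratio was that of Bub1b, with 15 and 6 UMIs (−1.17, −2.83 to 0.28), and the highest that of Cdca3, with 13 and 32 UMIs (1.45, 0.48 to 2.503). Of the 15 S phase genes compared, Ccne1 and Dtl passed 1.5-fold higher. Without the 1.5-fold limit, 16 of the 22 mitosis genes and 12 of the 15 S phase genes were higher in GKO. The median log2 ratios were 0.23 and 0.15, against 0.06 over all genes. The class had only 5 WT and 6 GKO mitosis barcodes, and the leading direction past 1.5-fold turned when the hormone had to reach 20% of UMIs.

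In nonendocrine barcodes both groups of genes were lower in GKO, 25 of 26 mitosis genes and 17 of 17 S phase genes. Past 1.5-fold lower were 17 mitosis genes and 6 S phase genes, where 8.28% of the 15341 genes compared were that much lower, and the medians were −0.69 and −0.50 against 0.00 over all genes. Ccnb1, cyclin B1, had the lowest ratio, with 236 WT UMIs (13.4 CPM) and 127 GKO UMIs (5.81 CPM) (−1.21, −1.53 to −0.89). Hells was at 15.5 and 7.19 CPM (−1.11), Birc5, the survivin of the chromosomal passenger complex, at 32.4 and 21.9 (−0.57), and Cenpa, at 36.8 and 37.3 CPM, had the highest ratio (0.02, −0.13 to 0.17). The class holds many cell types, and the part that their mix in each library has in these sums was not tested.

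**Figure D4:**
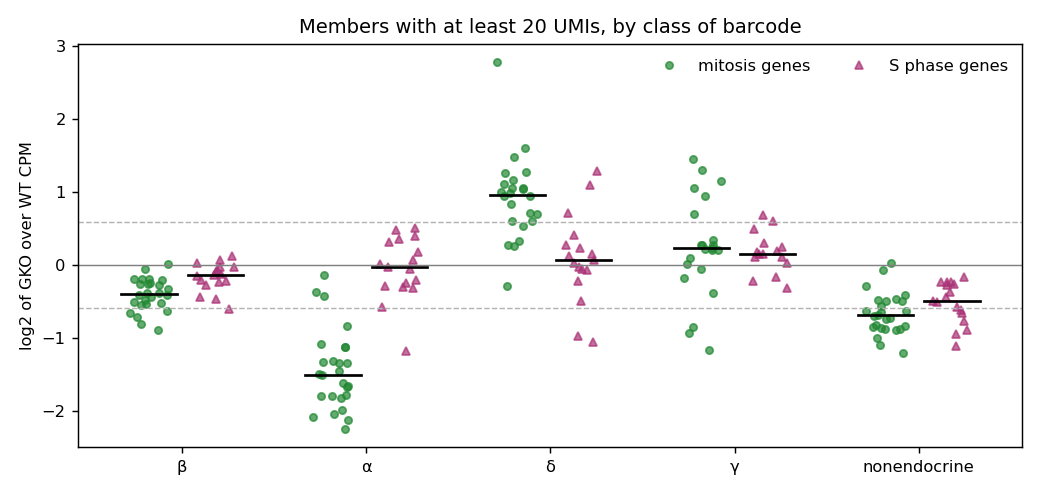
Log2 ratio of GKO to WT CPM for each mitosis and S phase gene with at least 20 UMIs, by class of barcode. The dashed lines mark 1.5-fold, and the mitosis genes lie below 0 in α (median −1.51) and above 0 in δ (median 0.96), while the S phase genes of both classes center near 0.

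The marker lists of nonendocrine cells show where those mitosis barcodes lay. A barcode was assigned to the list with the most UMIs, when at least 3 of its 8 genes were detected. Of the nonendocrine mitosis barcodes, 55 of 72 in WT (76.4%) and 54 of 64 in GKO (84.4%) had at least 3 general leukocyte markers. Barcodes with B cell markers (Cd79a, Cd79b and others) held mitosis genes in 28 of 35 in WT (80.0%, 63.1 to 91.6) and in 10 of 45 in GKO (22.2%, 11.2 to 37.1). These intervals do not overlap, and the median depth of these barcodes, before thinning, was 18763 UMIs in WT and 10802 in GKO. Their Mki67 level was 432 (WT) and 132 (GKO) CPM. The WT barcodes with B cell markers made up 38.9% of all WT nonendocrine mitosis barcodes, although they were 35 of 1303.

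In the other lists the intervals of the libraries overlapped, and several of these lists were small. Barcodes with macrophage markers had mitosis genes in 13 of 191 in WT (6.81%, 3.67 to 11.4) and 16 of 427 in GKO (3.75%, 2.16 to 6.01). Endothelial markers went with shares of 1.38% and 0.621%, and ductal markers with 0.541% and 1.44%. Barcodes with activated stellate markers had 4 of 244 (1.64%) and 2 of 491 (0.407%), and those with quiescent stellate markers 6 of 98 (6.12%) and 4 of 229 (1.75%). In barcodes with acinar markers there were 0 of 30 in WT, which allows a share of up to 10.0% by the limit of 3 counts (11.6% by the exact interval), and 1 of 24 in GKO. T and NK cell markers went with 3 of 6 and 5 of 9, and monocyte markers with 0 of 1 and 6 of 10. Dendritic cell markers went with 0 of 15 and 4 of 21, plasmacytoid dendritic cell markers with 3 of 8 and 2 of 7, and no list at all with 7 of 51 and 9 of 67. The glial, mature neutrophil and erythroid lists had at most 3 barcodes of 5000 UMIs or more in a library. S phase genes were found in more of the endothelial barcodes than mitosis genes were, in 6.68% of WT and 6.21% of GKO.

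**Figure D5:**
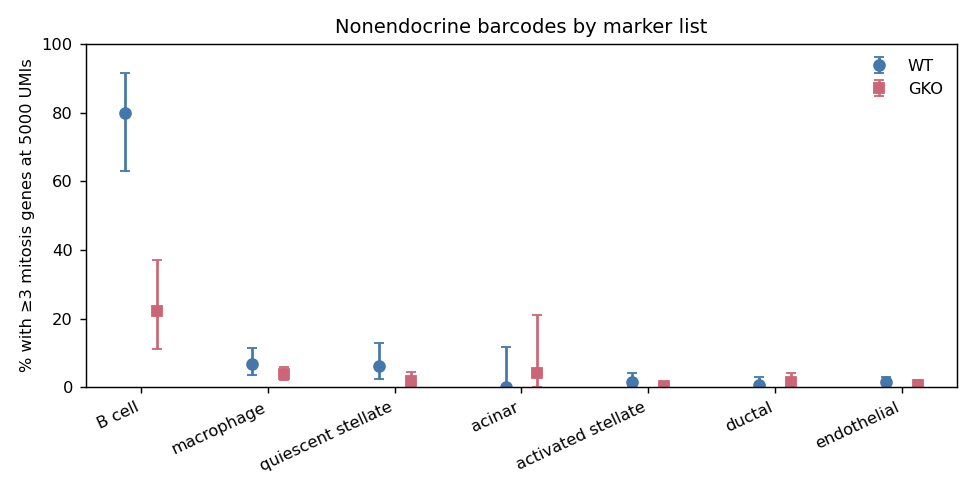
Share of nonendocrine barcodes with at least 3 mitosis genes at 5000 UMIs, by the marker list they were assigned to and by library, with exact 95% binomial intervals. Barcodes with B cell markers stand at 80.0% in WT and 22.2% in GKO, and the intervals of the other lists plotted overlap between the libraries.

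Genes that the choice of mitosis barcodes did not use were also higher in them. Compared with the rest of the WT β barcodes, 48 of 49 further mitosis genes, 49 of 50 further S phase genes and all 17 S phase members were at least 2-fold higher per UMI in mitosis barcodes, where 16.9% of all 13961 genes were. In GKO β these counts were 42 of 43, 44 of 45 and 17 of 17, against 18.7% of all genes. The median fold was 129 and 104 for the further mitosis genes, 9.91 and 10.5 for the further S phase genes and 12.2 and 11.8 for the S phase members, against 1.19 and 1.29 over all genes. Among the highest were Kif2c, a kinesin that takes microtubules apart, with 58 UMIs in the mitosis barcodes and 1 in the rest of WT β (1408-fold, 243 to 56551), the spindle pole gene Aspm (1056-fold, 405 to 3919), Ckap2l (662-fold) and the kinesin Kif18b (24 and 1 UMIs). Among the lowest were Pttg1, securin (1.49-fold, 1.08 to 2.01), and Rpa1, which coats single-stranded DNA (2.11-fold).

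Regulators of G1, the phase before S phase, leaned the same way in this comparison, but less uniformly. Of 30 such genes, 15 were at least 2-fold higher in WT β mitosis barcodes and 0 that much lower, where 16.9% of all genes were higher. In GKO β, 10 of 29 were higher and 2 lower, where 18.7% of all genes were higher. The D cyclins, which start the cycle with CDK4 and CDK6, differed among themselves: Ccnd1 was 0.785-fold and 0.959-fold and Ccnd2 0.749-fold and 0.741-fold in WT and GKO, while Ccnd3 was 1.90-fold and 1.55-fold. Cdk4 was 2.17-fold and 2.12-fold, and Cdk6 2.79-fold in WT, with 1 UMI in the GKO mitosis barcodes. Of the CDK inhibitors, Cdkn2c (p18) was 21.7-fold and 22.8-fold, Cdkn1a (p21) 2.95-fold and 1.77-fold and Cdkn1b (p27) 1.79-fold and 1.73-fold. Cdkn1c (p57) was 2.72-fold in WT, and 1 UMI was in the GKO mitosis barcodes.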

How the data were processed

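Droplet single-cell RNA-Seq (10x Genomics 3′) was made from 1 library of WT and 1 library of GKO islet cells. The deposited values are UMI counts per gene and barcode that the authors obtained with Cell Ranger (5.0.1 in the matrix headers, mm10 in the submitters' processing notes), for barcodes called as cells and without scaling. The authors' later removal of ambient RNA with CellBender is not in these counts, so free RNA remains. The 43 genes and all further lists were chosen with earlier results of these data known.

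Barcodes with 500 or more genes and at most 10% mitochondrial UMIs were classed by leading hormone (10% or more of UMIs). Each was thinned at random to 5000 UMIs (seed 1), and shares have exact Clopper-Pearson 95% intervals. UMIs were summed by class, scaled to CPM and compared for genes with at least 20 UMIs in both libraries together, with exact conditional intervals. UMIs cluster within barcodes, so intervals of sums are too narrow. As each genotype is a single library, genotypes were not tested. Doublets were kept, and a caller after DoubletFinder (pN 0.1, pK 0.01) marked 540 WT and 482 GKO barcodes, the top 7.6%, for an alternative without them. Steps were tested on simulated data.

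Values were printed for 17 members fixed by name, for the members with the highest and the lowest ratio between genotypes in a class, for 5 further genes with the highest and 3 with the lowest ratio of mitosis barcodes to the rest (1 of each is not reported here), and for 9 G1 regulators. Spc25 with its complex and its neighbor, Aurka, Cenpa, Tk1, Dtl, Gins2, Mcm3 to Mcm7, Rrm1 and the genes named to complete small counts were chosen after their values were seen. Alternatives changed the limits on barcodes, the hormone limit, the depth, the seed, the number of genes needed, doublets, the CPM total, the scaling (TMM) and the UMI minimum. Added after the data were seen were a depth of 2000 UMIs other than hormone UMIs, the mean of 20 draws, and fits without Spc25, mitosis barcodes or barcodes with B cell markers or with endocrine classes at equal weight. The tools were edgeR 4.0.16 (TMM) in R 4.3.3, and scikit-learn 1.9.0, pandas 2.3.3, matplotlib 3.10.9, scipy 1.17.1 and numpy 2.4.6 in Python 3.11.15.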

Additional observations from a re-analysis of the deposited data

Results flagged for a closer look

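Mitosis genes were also present in barcodes outside the limits on genes and mitochondrial UMIs. The main comparisons do not use these barcodes, while the alternatives that changed the limits include some or all of them. Of 692 such WT barcodes, 15 (2.17%, 95% interval 1.22 to 3.55) had at least 3 mitosis genes, above the 0.434% that a count of 0 would allow. Of 943 such GKO barcodes, 9 (0.954%, 0.437 to 1.80) had them, above 0.318%. These barcodes were not thinned, and their median depth was 2481 UMIs in WT and 2141 in GKO.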

How the results depend on the processing

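No paired analysis was possible because each genotype is 1 library. Of the values recomputed under the alternatives, 231 were labeled the same, 19 were labeled moved and 4 were labeled changed in direction. A ratio of shares was labeled the same when it lay within the interval of the main ratio, even where it crossed 1. The label thus does not mean that the direction was kept. The S phase ratio in β, 1.09 in the main setting, was below 1 in 5 of 15 alternatives. The ratio of GKO to WT mitosis shares stayed below 1 in all 16 alternatives in β (0.625 to 0.829) and in α (0.438 to 0.887), and its interval left out 1 in 1 of them in β, with 2 genes needed. In the pooled endocrine barcodes it ran from 0.529 to 0.776 and in nonendocrine barcodes from 0.542 to 0.855. There the interval held 1 without barcodes with B cell markers, and with the hormone at 20%, which adds hormone-led barcodes to the class. In δ (0.993 to 3.52) and γ (0.824 to 2.09) the ratio crossed 1. With the hormone at 20% of UMIs no δ ratio could be given, as 0 WT and 2 GKO barcodes were left. The S phase ratio moved in β to 2.16 at 2000 UMIs and to 0.555 at 2000 UMIs other than hormone UMIs, in α to 3.25 at the latter depth, and in the pooled endocrine barcodes to 1.38 with another seed. Its interval left out 1 in δ at 10000 UMIs (1.57), in the pooled endocrine barcodes with that seed and in nonendocrine barcodes without thinning (0.854). The cause was not tested beyond the spread over draws given above.

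Counts of the 43 members past 1.5-fold were 6 in β, 24 in α, 24 in δ, 11 in γ and 23 in nonendocrine barcodes. In β the count was 11 without called doublets, 3 without leukocyte-marker barcodes, and 10 with a total without hormone UMIs, with TMM scaling or, of 37, with thinning before summing (9.68% to 12.02% of all genes). In δ it was 9 of 18 members compared with the hormone at 20% (10.1% of all genes), 13 of 27 with at least 50 UMIs (4.92%) and 4 of 23 with thinning before summing (8.86%). In γ it was 17 of 40 with the hormone at 5% (9.35%), 4 of 22 with at least 50 UMIs (5.00%), 6 of 12 with thinning before summing (11.998%), and 5 of 32 with the hormone at 20% (9.00%), where the leading direction turned. In nonendocrine barcodes it was 5 of 43 with the hormone at 20%, which adds hormone-led barcodes to this class, below the 16.5% of all genes. With thinning it was 15 of 43 (18.4%). Outside this class fewer members reached the UMI minimum after thinning. Without mitosis barcodes, the counts were 7 of 32 in β (10.7%), 7 of 23 in α (9.08%) and 6 of 19 in δ (8.84%), each with the leading direction turned. They were 4 of 20 in γ (9.12%) and 11 of 36 in nonendocrine barcodes (18.5%). Of these 11, 10 were lower in GKO and 1 was higher, so the direction was kept in nonendocrine barcodes. The 19 mitosis genes compared there had a median log2 ratio of −0.58. The small number of mitosis barcodes limits what could be seen in δ and γ, where shares rest on 5 or 6 barcodes a library. At 10000 UMIs they rest on 7 and 4 barcodes in δ and on 5 and 6 in γ.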

Other observations

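Further genes of the same processes, from lists not limited to the members, were compared between genotypes in the same way. Past 1.5-fold lower in GKO were 26 of 47 further mitosis genes in α (4.68% of all genes compared), 8 of 49 in β (4.99%) and 17 of 49 in nonendocrine barcodes (8.28%), and past 1.5-fold higher were 9 of 36 in δ (4.72%) and 5 of 33 in γ (5.8%). These sums come from the same barcodes as those of the members and are no independent evidence. Of the further S phase genes, 6 of 50 were that much lower in β and 13 of 51 in nonendocrine barcodes. In α 3 of 44 were higher and 3 lower, where 9.41% of all genes passed in either direction. In δ 4 of 44 were higher, and in γ 4 of 44 were higher and 1 lower, where 3.27% of all genes were that much lower.

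Regulators of G1 went both ways between genotypes, with medians of the log2 ratio from 0.05 to 0.09 over the 5 classes. Past 1.5-fold were 3 of 30 in β, all higher in GKO, and 2 higher and 1 lower of 29 in α and of 27 in δ. In γ 1 of 29 was higher and 1 lower, and in nonendocrine barcodes 2 of 30 were higher and 1 lower. Of all genes, 11%, 9.41%, 8.97%, 9.07% and 18.2% passed in these classes in either direction. Cdkn1c, the CDK inhibitor p57, was at 2.45 CPM in WT and 5.06 in GKO β (log2 ratio 1.05, 0.75 to 1.35) and at 63.8 and 102 CPM in nonendocrine barcodes (0.67). Its log2 ratio was 0.33 in α and 0.32 in γ, but in δ it was lower in GKO, at 5.09 and 3.55 CPM (−0.52, −1.10 to 0.04). Cdkn1a, the inhibitor p21, was at 65.8 and 37.9 CPM in δ (−0.80), 28.8 and 22.3 in β (−0.37) and 387 and 267 in nonendocrine barcodes (−0.54). It was nearer to equal in α (−0.12) and in γ (0.12). Of the D cyclins, Ccnd1 was at 102 and 126 CPM in β (0.31), Ccnd2 at 472 and 484 (0.03) and Ccnd3 at 18.1 and 14.7 (−0.30).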
